A study of Homo sapiens with 4 samples.

Results

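The transcripts described here encode 10 immune checkpoint ligands and surface modulators of tumour cells: CD274 (PD-L1), PDCD1LG2 (PD-L2), CD276 (B7-H3), CD47, NT5E (CD73), PVR (CD155), LGALS9 (galectin-9), ICAM1, MICA and ULBP2. They were taken by gene symbol from count tables that hold 29655 gene names, and all 10 were found. All 10 also passed the filter on low values, which left 11896 protein-coding genes for the test.

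Tumour cells carry surface proteins that T cells, natural killer (NK) cells and macrophages read as signals to attack or to hold back. PD-L1 and PD-L2 bind PD-1 on T cells and dampen them, CD47 binds SIRP-alpha on macrophages and restrains phagocytosis, and CD73 makes adenosine, which quiets many immune cells. In the other direction, MICA and ULBP2 engage the activating receptor NKG2D on NK cells, and ICAM1 anchors lymphocytes through the integrin LFA-1. Many of these genes respond to interferon-gamma, and others to NF-kB.

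RNA was sequenced from cells labelled UMSCC74B, an established line of head and neck squamous cell carcinoma. Cells received either a control shRNA plasmid (genotype given as WT, 2 libraries) or a PRMT5 shRNA plasmid (genotype given as PRMT5 KD, 2 libraries), and both arms were grown for 72 h after transfection in antibiotic-free medium. PRMT5 is a type II arginine methyltransferase, and the study asked how its loss bears on the RNA-binding protein FXR1 and its RNA targets. The labels name 1 cell line and neither the shRNA sequence nor separate cultures, so p-values measure the spread between these libraries, which may be technical. Libraries held 52263508 to 66070664 estimated counts. The share on protein-coding genes was 71.5% in replicate 1 labelled PRMT5 KD and 79.5 to 81.4% in the others.

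PRMT5 itself was higher in the libraries labelled PRMT5 KD. In control it measured 94.3 and 84.2 CPM (counts scaled to a common library size, adjusted by the trimmed mean of M values, TMM), and under the PRMT5 KD label 132 and 150 CPM. The log2 fold change was 0.66 (SE 0.12, edgeR quasi-likelihood test, adjusted p = 0.00543), and without control replicate 2 it was 0.58 with an adjusted p of 0.0662. The mRNA of the targeted gene in these libraries thus goes against the label. The paper reports that an immunoblot, which measures protein and not mRNA, showed the silencing. That blot is not analysed here. Every direction below is that of the libraries labelled PRMT5 KD against the libraries labelled control.

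Markers of cell type were also measured. Of 8 squamous epithelial markers only TP63 passed the filter, KRT5, KRT14, KRT6A and CDH1 were at or near 0, and the 8 together summed to 4.56 to 7.93 CPM in any library, which goes against the squamous label. The 5 fibroblast markers (COL1A1, COL1A2, DCN, LUM and PDGFRB) summed to 526 and 580 CPM in control and to 85.3 and 93.0 CPM in those labelled PRMT5 KD, and all 5 were called lower. Among 10 leukocyte markers PTPRC and CD3E were at or near 0, CD68 was called higher (95 to 170 CPM over the libraries) and CD14 fell from 34.6 and 40.0 to 1.07 and 1.86 CPM. Of 3 endothelial markers PECAM1 passed the filter and was called lower. The part of these shifts in the results below was not tested, and in bulk RNA fewer cells of a type and less RNA per cell cannot be told apart.

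Promoter stretches of CD274, ICAM1 and LGALS9 are shown, since these are the genes with a motif of the interferon pathway. In the comparison below CD274 and LGALS9 were called higher and ICAM1 lower, beside 45.6% of all genes called. NT5E, also called higher, held no such motif, and a link between motif and call was not tested. The stretches come from RefSeq windows on GRCh38.p14, from 250 bases before to 50 bases after the transcription start. These windows were available for 9 of the 10 genes (CD276 with 2 starts). PDCD1LG2 is not among them. Printed bases stop before the first GENCODE 44 exon, or are the last 30 before the start where the window lies inside an exon. All are on the plus strand, 5′ to 3′, and capitals mark matches to the GAS motif (TTCNNNGAA, an interferon-gamma response element) or the ISRE core (GAAANNGAA, bound by IRF proteins), read on both strands.
CD274, chr9:5450292-5450502: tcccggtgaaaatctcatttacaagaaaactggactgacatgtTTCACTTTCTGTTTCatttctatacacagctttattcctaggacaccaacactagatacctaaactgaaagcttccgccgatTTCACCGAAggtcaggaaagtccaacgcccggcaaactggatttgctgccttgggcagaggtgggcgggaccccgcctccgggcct
ICAM1, chr19:10270870-10271092: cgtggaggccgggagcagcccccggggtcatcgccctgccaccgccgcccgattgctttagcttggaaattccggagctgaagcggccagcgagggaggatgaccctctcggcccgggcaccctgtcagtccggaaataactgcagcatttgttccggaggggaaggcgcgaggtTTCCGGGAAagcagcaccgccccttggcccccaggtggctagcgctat
LGALS9, chr17:27631158-27631187: ataacagccaagttgctttggtTTCTATTT

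The CD274 stretch held both motifs. Its ISRE core matched at -207 to -199 and, overlapping that match, at -201 to -193, and its GAS matched at -125 to -117, counted from the start. ICAM1 held a GAS at -75 to -67, and LGALS9 an ISRE core from -8 to 1, whose last base lies beyond the printed stretch. GAS occurs in 7.88% of 27305 promoter windows and the ISRE core in 8.29%, so each is found in many unrelated genes. The window of CD276 at its other start held an NF-kB match (10.8% of windows), ULBP2 an AP-1 match (TGANTCA, 7.76%), CD276 and CD47 a hypoxia response core (ACGTG, 21.6%), and ICAM1 a TATA box (TATAAA, 11.95%). The NF-kB pattern had to start with GGG and end with CC, so other forms of this site were not sought in any window. A GC box (GGGCGG, 44.6%) lay in 7 of the 9. A match is a string of letters and was not tested for binding.

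**Figure D1:**
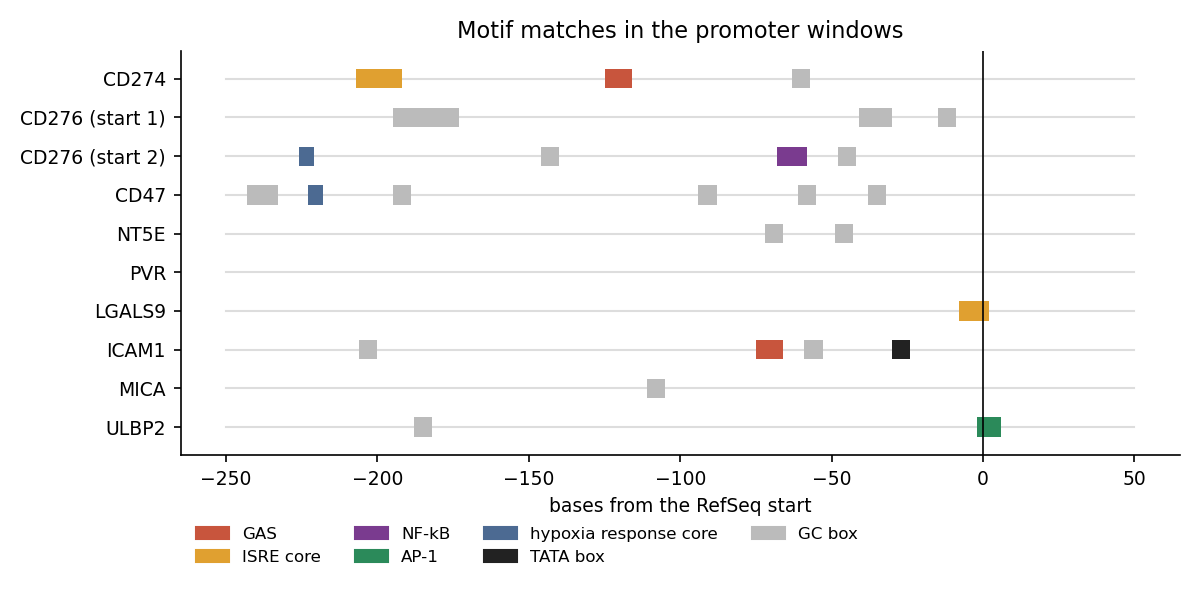
Motif matches in the promoter windows of 9 genes, CD276 with both its starts; the x axis gives bases from the RefSeq start and each bar is 1 match on either strand. GAS lies in CD274 and ICAM1, the ISRE core in CD274 and LGALS9, and GC boxes in 7 genes.

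Of the 10 genes, CD274, PDCD1LG2, NT5E and LGALS9 were called higher in the libraries labelled PRMT5 KD, ICAM1 was called lower, and CD276, CD47, PVR, MICA and ULBP2 were not called. A call needed an adjusted p under 0.05 and a log2 fold change of at least 0.5 in size. The 4 of 10 called higher stand beside 21.2% of all genes tested, the 1 of 10 called lower beside 24.4%, and the 5 of 10 called beside 45.6%. The share called is near that of all genes, so the count says little about these genes as a group. The CPM of both groups did not overlap in 9 of 10 genes, against 80.5% of all genes tested. The median log2 fold change of the 10 was 0.34, and that of all genes -0.01.

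**Figure D2:**
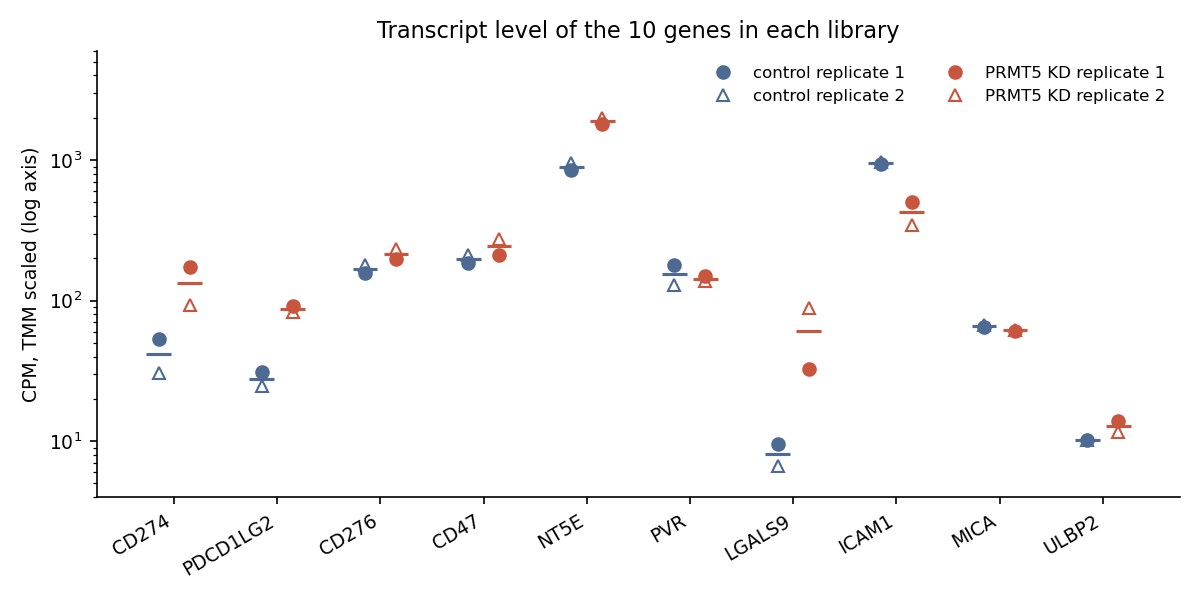
CPM (TMM scaled, log axis) of the 10 genes in the 2 control libraries (blue) and the 2 libraries labelled PRMT5 KD (red); bars are means of 2. Both red points lie above both blue ones for CD274, PDCD1LG2, NT5E and LGALS9 and below them for ICAM1, and only PVR overlaps.

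CD274 and PDCD1LG2, the PD-1 ligands, rose 3.18- and 3.13-fold. They are neighbours on the plus strand of chromosome 9 (GRCh38, GENCODE 44 at 5450503-5470566 and 5510531-5571282), with 39965 bases between them. CD274 measured 53.3 and 30.8 CPM in control and 174 and 93.6 CPM in those labelled PRMT5 KD. Its log2 fold change was 1.67 (SE 0.41, adjusted p = 0.025, 95% interval 0.59 to 2.75). Both libraries labelled PRMT5 KD lay above both controls, but the replicates of each group also differed, and the call was lost without control replicate 2 (1.33, adjusted p = 0.0858), without replicate 1 labelled PRMT5 KD (1.19, 0.121) and without replicate 2 labelled PRMT5 KD (2.05, 0.052). PDCD1LG2 measured 31.0 and 24.8 CPM in control and 91.1 and 83.3 CPM in the other arm, a log2 fold change of 1.65 (SE 0.15, adjusted p = 0.000474, 1.296 to 1.996). Its replicates lay close together, and its call held in all 16 alternative settings. The ratio of CD274 to PDCD1LG2 CPM was 1.72 and 1.24 in control and 1.91 and 1.12 in the libraries labelled PRMT5 KD, so the replicates of a group differed more in it than the groups did.

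CD276, a B7 ligand without an agreed receptor, was not called. It measured 157 and 178 CPM in control and 198 and 233 CPM in those labelled PRMT5 KD, a log2 fold change of 0.37 (SE 0.14, adjusted p = 0.0584, 0.04 to 0.69). Both values labelled PRMT5 KD lay above both controls, and the interval spans rises from 0.04 to 0.69. Without replicate 1 labelled PRMT5 KD the change was 0.51 and called. Without replicate 2 labelled PRMT5 KD it was 0.25, without control replicate 1 0.28 and without control replicate 2 0.47.

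NT5E rose and CD47 was not called. NT5E, the ecto-enzyme that turns AMP into adenosine, measured 845 and 950 CPM in control and 1821 and 1986 CPM in those labelled PRMT5 KD, a log2 fold change of 1.08 (SE 0.15, adjusted p = 0.00174, 0.72 to 1.45). The groups lay apart by more than their replicates did, and the call held in all 16 alternatives. CD47 measured 184 and 211 CPM in control and 212 and 275 CPM in the other arm, a log2 fold change of 0.30 (SE 0.16, adjusted p = 0.157, -0.09 to 0.69). Control replicate 2 and replicate 1 labelled PRMT5 KD were nearly equal, and without the latter the change was 0.51 and called. Without replicate 2 labelled PRMT5 KD it was 0.10, without control replicate 1 0.215 and without control replicate 2 0.405.

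ICAM1 fell and PVR was not called. ICAM1, the ligand of LFA-1, measured 935 and 974 CPM in control and 502 and 347 CPM in those labelled PRMT5 KD, a log2 fold change of -1.17 (SE 0.20, adjusted p = 0.0038, -1.65 to -0.69). Both libraries labelled PRMT5 KD lay well under both controls, and the call held in all 16 alternatives. The ratio of NT5E to ICAM1 CPM was 0.904 and 0.975 in control and 3.63 and 5.73 in the other arm, without overlap. PVR, which binds TIGIT and CD226, measured 181 and 130 CPM in control and 149 and 138 CPM in the other arm, a log2 fold change of -0.11 (SE 0.17, adjusted p = 0.608, -0.53 to 0.31). It was the only one of the 10 whose groups overlapped, and without control replicate 1 the estimate was 0.15. Its span overlaps that of CEACAM19 on the same strand, which measured at most 3.89 CPM.

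LGALS9 rose. This galectin, a ligand of TIM-3, measured 9.57 and 6.63 CPM in control and 32.8 and 88.8 CPM in those labelled PRMT5 KD, a log2 fold change of 2.91 (SE 0.56, adjusted p = 0.0128, 1.42 to 4.40) and a fold of 7.52. The 2 libraries labelled PRMT5 KD were both above control but far from each other. It was the largest fold of the 10 with all libraries, but without replicate 2 labelled PRMT5 KD its log2 fold change was 2.02, under the 2.05 of CD274, and without control replicate 2 it was 2.67 and lost its call (adjusted p = 0.0729). The near-identical LGALS9B and LGALS9C, whose reads may be shared with it, stood at 0.293 CPM or lower in every library.

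The NKG2D ligands MICA and ULBP2 were not called. MICA measured 65.1 and 66.8 CPM in control and 60.5 and 62.1 CPM in those labelled PRMT5 KD, a log2 fold change of -0.11 (SE 0.10, adjusted p = 0.422, -0.36 to 0.15). Its close relative MICB, which shares its receptor, measured 19.9 and 18.1 CPM in control and 50.7 and 62.2 CPM in the other arm and rose by 1.57 (SE 0.15, adjusted p = 0.000514). The ratio of MICB to MICA CPM, not adjusted for length, was 0.306 and 0.271 in control. In the libraries labelled PRMT5 KD this ratio was 0.838 and 1.00, without overlap. The counting may have split reads between MICA and MICB. With both summed the log2 fold change was 0.47 (adjusted p = 0.0131), under the size needed for a call. ULBP2 measured 10.2 CPM in each control library and 13.9 and 11.6 CPM in the other arm, a log2 fold change of 0.32 (SE 0.16, adjusted p = 0.129, -0.06 to 0.70). The near-identical RAET1L stood at 0.294 CPM or lower in every library.

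**Figure D3:**
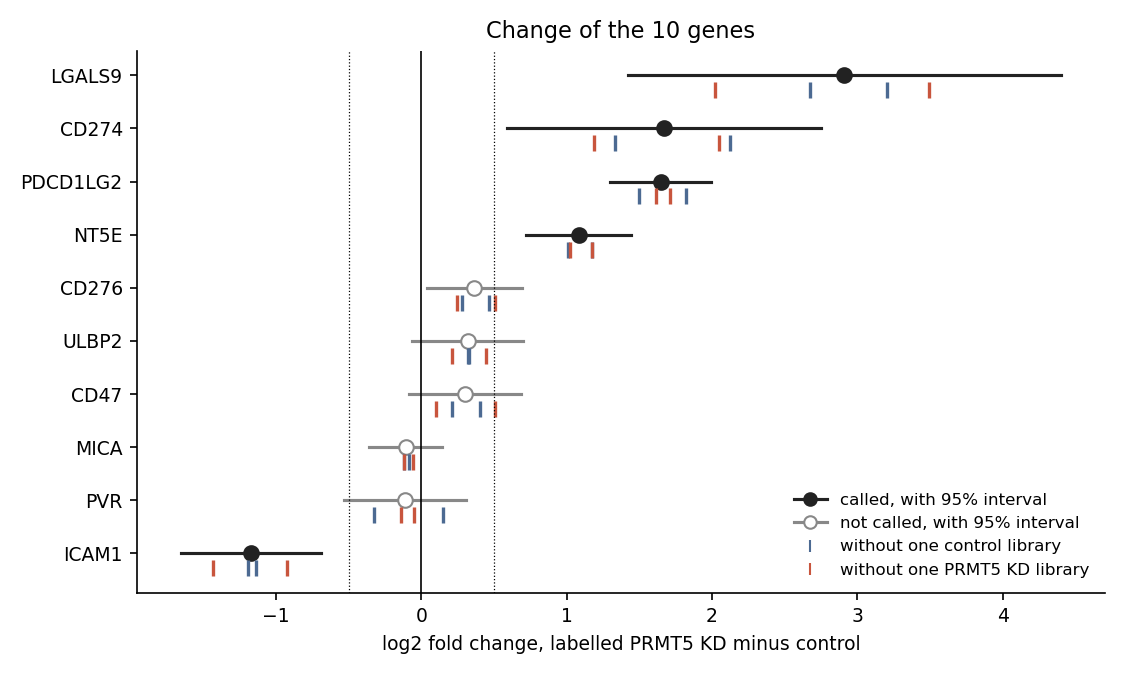
log2 fold change of the 10 genes (x axis, libraries labelled PRMT5 KD minus control) with 95% intervals; filled points were called, dotted lines mark 0.5 and -0.5, and ticks give the value without 1 library. LGALS9 and CD274 have the widest intervals, 1.42 to 4.40 and 0.59 to 2.75.

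Levels of different genes are comparable only per length, as RPKM (CPM divided by the union exon length in kilobases). In control ICAM1 was highest at 277 RPKM, followed by NT5E at 198, CD276 at 30.5, CD47 at 23.98, MICA at 17.1, PVR at 14.9, PDCD1LG2 at 11.5, CD274 at 10.2, ULBP2 at 7.64 and LGALS9 at 1.42 (means of 2). Neighbours from MICA to ULBP2 did not differ beyond the ranges of their libraries. In the libraries labelled PRMT5 KD NT5E was highest at 420 RPKM and ICAM1 followed at 123. CD276 (39.4), PDCD1LG2 (35.9), CD274 (32.5) and CD47 (29.5) came next with overlapping neighbours, then MICA (15.9), and last PVR (13.8), LGALS9 (10.6) and ULBP2 (9.53), also overlapping. ICAM1 and NT5E thus changed places at the top, and the PD-1 ligands stood beside CD276 and CD47 in place of PVR and ULBP2. With the length of the longest transcript CD274 and PDCD1LG2 change places in both groups, and MICA passes CD47 in control.

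**Figure D4:**
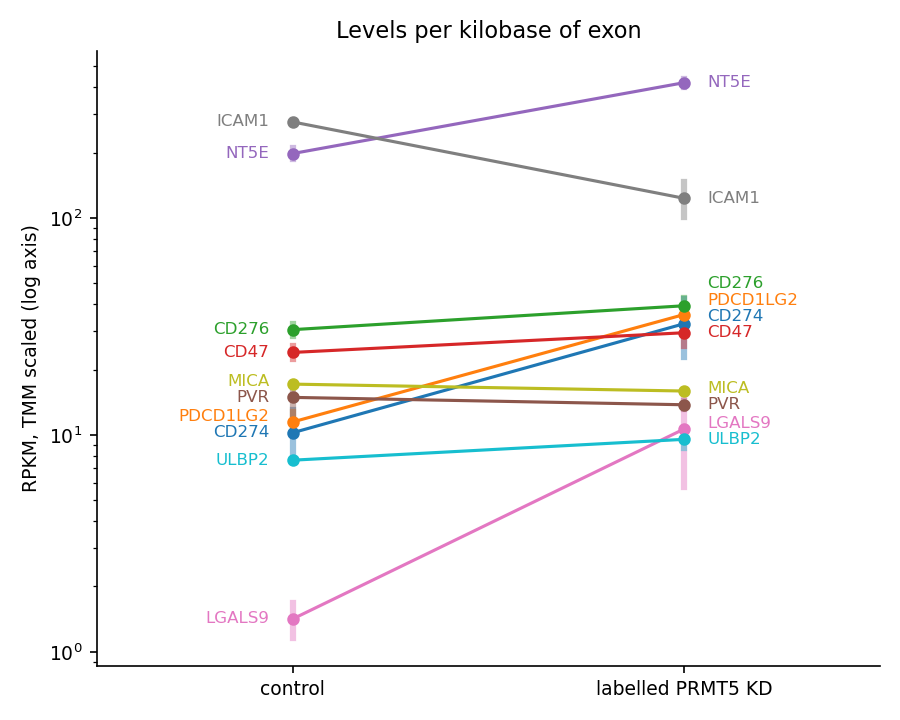
Mean RPKM (TMM scaled, log axis) of the 10 genes in the control libraries and the libraries labelled PRMT5 KD, with faint bars for the range of 2 libraries. NT5E passes ICAM1, and LGALS9 climbs from 1.42 to 10.6.

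Over the 4 libraries, the genes with a profile closest to that of CD274 were SNAPC1, NRCAM and PID1, at Euclidean distances of 0.205, 0.231 and 0.315 in centred log2 CPM. SNAPC1, a subunit of the small nuclear RNA activating complex, measured 153 and 78.8 CPM in control and 407 and 237 CPM in those labelled PRMT5 KD. It was picked for closeness over these same libraries, so a shared rise and a shared gap between replicates follow from the choice. For CD276 the nearest were PUS7L, NHSL1 and CTPS2, at 0.0483, 0.0487 and 0.0562.

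The counts of calls in the lists below are read against the 45.6% of all genes called, 21.2% higher and 24.4% lower. Of 13 tested genes of the B7, butyrophilin and TNF superfamily list, 3 were called higher, 3 lower and 7 not called (46.2% called, near the share of all genes), with a median log2 fold change of 0.35. BTN2A2 and BTN3A3, butyrophilins that act on T cells, rose by 0.65 and 0.82, CD40, a receptor that activates antigen-presenting cells, rose by 0.86, and TNFRSF14 (HVEM), the ligand of BTLA, fell by 1.35. Without control replicate 1 a single gene was called higher, and without replicate 1 labelled PRMT5 KD 6 were. None of 15 immune cell receptors passed the filter, among them PDCD1, TIGIT and KLRK1, and SIRPA, the receptor of CD47, measured 2.28 to 5.19 CPM.

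Of 13 tested genes that handle the PD-L1 protein, 7 were called lower, 6 not called and none higher (53.8% called against 45.6% of all genes), and the median log2 fold change was -0.66 against -0.01 over all genes. Of the sheddases ADAM17 fell by 1.08 and ADAM9 fell by 1.01, GSK3B, the kinase that marks PD-L1 for degradation, fell by 0.97, and CMTM6, which keeps PD-L1 at the cell surface, fell by 0.77. CMTM6 measured 185 and 208 CPM in control and 116 and 115 CPM in those labelled PRMT5 KD, so it fell while CD274 rose. Under scaling by total counts alone 6 genes of the list were called lower and 1 higher.

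Of the 17 genes of the interferon-gamma route and other regulators of CD274, 3 were called higher, 1 lower and 13 not called, a median log2 fold change of 0.11. IRF2, a transcription factor of the interferon response, rose by 0.58. SOCS1 rose by 2.03 (SE 0.28), the largest rise of the list. It measured 2.20 and 1.68 CPM in control and 6.47 and 9.31 CPM in those labelled PRMT5 KD. The mean expression of SOCS1, 2.31 on the log2 CPM scale, is under the limit for naming. It is named here after its values were seen. IFNGR1 measured -0.35, JAK2 0.12 and IRF1 0.24 on the log2 scale, and none of these 3 was called. HIF1A, the oxygen-regulated transcription factor, fell by 2.24, from 1799 and 1789 CPM to 481 and 279 CPM. Without control replicate 2 a single gene was called higher, and without replicate 1 labelled PRMT5 KD 3 were called lower.

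Neighbours of CD274 on 9p24 moved in both directions or were not called. Of 9 tested, 1 was called higher, 2 lower and 6 not called, with a median log2 fold change of 0.12. AK3, a mitochondrial adenylate kinase, fell by 1.19, ERMP1, a membrane metallopeptidase, fell by 2.71, and JAK2 stood at 0.12. The gene called higher, PLGRKT, rose by 1.02 (SE 0.275), from 2.9 and 3.2 CPM to 7.6 and 4.8 CPM. At 5357971-5437925 it is the gene of this list closest to CD274, which starts at 5450503. PLGRKT lost its call when either control replicate was left out, and it is named here after its values were seen.

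Among 8 tested ligands of NK cells 2 were called higher, 3 lower and 3 not called, with a median log2 fold change of -0.12. Beside MICB, HLA-E, the ligand of the inhibitory receptor NKG2A, rose by 0.89, from 557 and 681 CPM to 1107 and 1191 CPM. CLEC2D, the ligand of CD161, fell by 0.66. Without control replicate 1 a single gene was called higher, and with either control replicate left out none was called lower.

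All 9 tested genes of the phagocytosis and complement list were called, 7 lower and 2 higher, and their median log2 fold change was -0.93. LRP1, the receptor of calreticulin on phagocytes, fell by 2.19 from 3039 and 3908 CPM to 785 and 739 CPM. CD46, which limits complement, fell by 1.90, CD55, another complement regulator, rose by 0.65, and QPCTL, the enzyme that modifies CD47 for SIRP-alpha binding, fell by 1.22. With either control replicate left out, 4 genes were called lower and none higher.

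Of 13 tested nectins and adhesion partners 5 were called lower, 8 not called and none higher, and the median log2 fold change was -0.44. CADM1 fell by 2.91, F11R fell by 1.17 and CD99 fell by 0.57, all 3 adhesion proteins like ICAM1. NECTIN2, which shares the receptors TIGIT and CD226 with PVR, stood at 0.03 and was not called. Without control replicate 2, 3 genes were called lower, and without replicate 1 labelled PRMT5 KD 1 was called higher.

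Of 5 tested genes of the adenosine pathway 3 were called lower and 2 not called, a median log2 fold change of -0.56. This count depended on the filter on low values: filterByExpr gave 3 lower and 2 higher, and no filter 4 lower and 3 higher. ENPP1, another ecto-enzyme that feeds AMP to CD73, fell by 0.73, and ADORA2B, a receptor for adenosine, fell by 0.56, while NT5E rose. Without control replicate 2 none was called lower, and without replicate 1 labelled PRMT5 KD 1 was called higher. Of 4 tested galectins besides LGALS9 only LGALS8 was called, with a rise of 0.50, and the median was 0.15. That call was lost when either control replicate was left out, and without replicate 1 labelled PRMT5 KD 1 galectin was called lower.

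**Figure D5:**
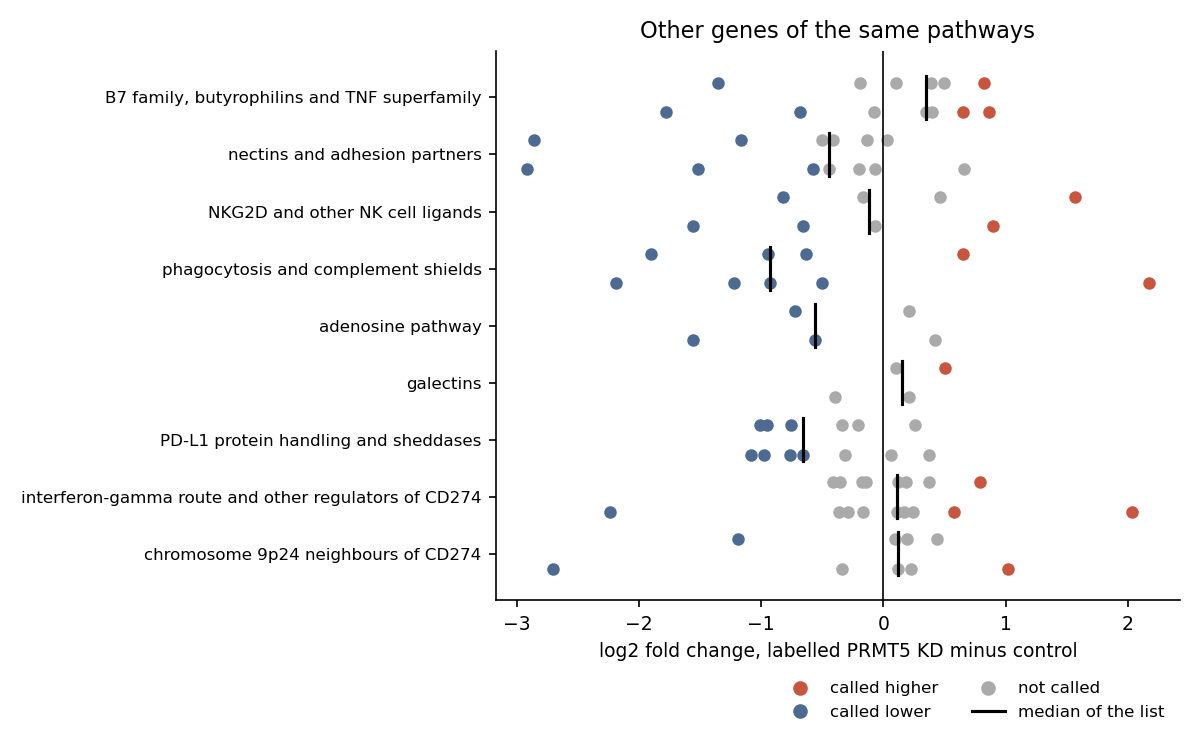
log2 fold change (x axis, libraries labelled PRMT5 KD minus control) of each tested gene in 9 lists, with the median of each list as a black bar; points are offset vertically only to separate them. Medians run from -0.93 in the phagocytosis and complement list to 0.35 in the B7, butyrophilin and TNF superfamily list.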

How the data were processed

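The authors deposited 1 table per library of estimated counts per gene name, and 79.4 to 80.4% of nonzero values were exactly whole (no tolerance). Per the labels, libraries were made with a directional kit, and the submitters' processing notes name FastQC, Trim Galore, STAR, Salmon and DESeq2 with GRCh38. The paper's methods name another counter and annotation and lentiviral delivery, so which made these files is not given in the sources used here, nor is the strand setting. Libraries of FXR1 knockdown were not analysed here.

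Rows with the same name were summed, 28 entries spoiled into dates (0.15 to 0.161% of counts) were dropped, and 18919 names matched a protein-coding gene of GENCODE 44: in all 21877 names by symbol, 1149 by RefSeq gene number and 1577 by a unique synonym, while 56 were ambiguous, 4996 unmatched and 53 were second names of a matched gene. Estimated counts were rounded, genes needed an RPKM of 0.5 in every library of a group, and edgeR 4.0.16 in R 4.3.3 (TMM, robust quasi-likelihood F test, no replicate block) compared both groups with Benjamini-Hochberg adjustment over 11896 genes. SEs come from the fold change and F statistic. The biological coefficient of variation was 0.142. Fits were tested on simulated data. Alternatives were DESeq2 1.42.0, other scalings and filters, a length and GC correction, a replicate block, its crossed pairing, summed copies and leaving out each library, where the lone library is assumed to vary like the others.

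All 10 genes are named, and from each list the called genes whose mean expression reached 3 on the log2 CPM scale and whose groups did not overlap, at most 3 a direction by size of change, plus partners of the 10 genes. For CD274 and CD276 the 3 nearest profiles are named. The genes and lists were chosen with earlier results of these data known. A gene that this rule selects is not reported here.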

Additional observations from a re-analysis of the deposited data

How the results depend on the processing

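PDCD1LG2, NT5E and ICAM1 kept direction and call in all 16 alternatives tried for each. With no filter on low counts 2 of the 10 genes were called higher in place of 4, since CD274 (adjusted p = 0.0786) and LGALS9 (0.0615) lost their calls. Leaving out 1 library gave 2 to 5 genes called higher and 3114 to 5723 of all genes called, the lowest of both without control replicate 2. Under the replicate block 5184 genes were called, 2403 higher and 2781 lower, and none of the 10 genes changed its call. The correlation of deviations between libraries with the same replicate number was -0.10, and with the numbers crossed, a pairing chosen after seeing the data, 5487 genes were called, 2545 higher and 2942 lower, and 3 of the 10 genes were called higher.

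Scaling by total counts alone moved the median of all genes to 0.17 and the share of calls that were higher from 46.5% to 61.5%, and a length and GC correction moved that share to 53.5%. CD276 was then called, at 0.55 and 0.54, and at 0.54 with the replicate block and the length and GC correction. Genes without a call turned direction. PVR was 0.063 under total counts alone, 0.21 under the length and GC correction, 0.23 under that correction with the replicate block and ranged from -0.33 to 0.15 when 1 library was left out. MICA was 0.074 under total counts alone and 0.47 summed with MICB. ULBP2 was -0.11 under the length and GC correction and -0.11 with the replicate block added. The cause was not tested. Among the lists, total counts alone gave 6 of the B7, butyrophilin and TNF superfamily list called higher and 1 of the NK ligands called lower, and the length and GC correction gave 6 of the interferon-gamma list called higher. The lowest estimated count of the 10 genes was 332, for LGALS9 in control replicate 2.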
